A study of Mus musculus with 9 samples.

Results

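The T cell receptor complex and the molecules that work beside it were read from 22 probe sets of 10 genes, out of 45037 probe sets of 18193 genes with array controls left out. Every probe set that the platform annotation gives to Cd3d, Cd3e, Cd3g, Cd247, Trbv1, Cd4, Cd8a, Cd2, Bcl11b or Gata3 was taken, whatever its value. These genes were chosen by their high log2 values in haematopoietic stem cells (HSC) in earlier results of the same arrays, so their HSC levels are given as a description and without a test. The genes cover more than the receptor: Cd2 is an adhesion molecule, and Bcl11b and Gata3 are transcription factors of T cell development.

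The study set 3 arrays of HSC and 3 arrays of very small embryonic-like stem cells (VSEL) beside 3 arrays of the mouse embryonic stem cell line ESC-D3. HSC were sorted from bone marrow of C57BL/6 mice at 4 weeks of age as Sca-1-positive, CD45-positive cells without lineage markers. VSEL came from bone marrow of the same strain and age and differed in the sort by lacking CD45. ESC-D3 is a single line of strain 129S2/SvPas, taken from an embryo before implantation and grown with leukaemia inhibitory factor. Each library began with 20 sorted cells, whose cDNA was amplified by PCR before labelling. The labels do not list the antibodies of the lineage sort. Nor do they tie the libraries to separate mice or dishes. The p-values below therefore cover the spread from library to library, which could be technical. A level in such a pool is the product of how many cells carry a transcript and how much each carries, and fewer cells of a type and less RNA per cell cannot be told apart.

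The T cell receptor is a pair of clonally variable chains, alpha with beta or gamma with delta, that binds antigen but has almost no cytoplasmic part. Signals are passed on by the CD3 gamma, delta and epsilon chains and by the zeta chain encoded by Cd247, whose cytoplasmic motifs are phosphorylated by Src family kinases. CD4 and CD8 are coreceptors that bind major histocompatibility complex molecules, and in the mouse these genes mark T cells far more than blood-forming stem cells.

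Arrays VSEL 2 and VSEL 3 stood apart from all other pairs of a group by how little they differed. Their probe sets correlated at 0.989, against 0.831 to 0.957 in the other pairs, and only 1 probe set differed by more than 4-fold, against 1565 to 4232. They were averaged and counted as 1 library, VSEL 2+3, which leaves 3 HSC, 2 VSEL and 3 ESC libraries in every test. The lower quartile of all genes, used as a guide to background, was 4.49 to 4.53 in HSC, 4.72 to 4.80 in VSEL and 4.54 to 4.56 in ESC (log2 RMA values). The upper quartile was 8.55 to 8.64 in HSC, 7.58 to 7.74 in VSEL and 8.50 to 8.56 in ESC. The arrays thus did not share 1 distribution, and a further quantile normalization was among the other settings. The control probe sets' 3' minus 5' signal was 0.733 to 0.962 in HSC, 0.709 to 1.07 in VSEL and 0.34 to 0.446 in ESC. Ptprc, which encodes CD45, lay at 13.40 to 13.68 in HSC, 3.25 and 3.59 in VSEL and 2.94 to 3.17 in ESC libraries, in the order of the sort. Among defining genes of HSC, the receptor Kit lay at 7.57 to 8.96 in the HSC libraries, Mecom, a transcription factor needed for stem cell maintenance, at 4.58 to 5.07, and Procr, a surface marker of stem cells, at 4.88 to 5.85. The median of the 13 measured HSC and progenitor genes was 6.65 to 7.09 in HSC, above the 6.04 to 6.25 of all genes on those arrays. Mecom and Procr were below that all-gene median in the HSC libraries, while Kit was above it. The median of the same 13 genes was 6.32 and 6.66 in the VSEL libraries, which overlapped HSC, and 5.87 to 6.25 in ESC.

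Cd3d, Cd3g and Cd3e lie together on mouse chromosome 9, and Cd247 is on chromosome 1. The RefSeq promoter table of assembly GRCm38.p6 held 7 of the 10 genes and did not list Cd2, Cd4 or Trbv1. The transcript starts of Cd3g and Cd3d are 1355 bases apart on opposite strands, and those of Cd3d and Cd3e are 27825 bases apart. The promoters of the 4 signalling chains are shown because Cd3d, Cd3g and Cd247 were all far higher in HSC while Cd3e was not. Each runs 5' to 3' from 250 bases before the start to 50 bases after it, at chr9:44981536-44981835 on the plus strand for Cd3d, chr9:44980382-44980681 on the minus strand for Cd3g, chr9:45009562-45009861 on the minus strand for Cd3e and chr1:165788431-165788730 on the plus strand for Cd247. Capitals mark matches to 5 short motifs searched on both strands, named for the ETS, RUNX, GATA, TCF and LEF, and E protein families that bind such letters.
Cd3d: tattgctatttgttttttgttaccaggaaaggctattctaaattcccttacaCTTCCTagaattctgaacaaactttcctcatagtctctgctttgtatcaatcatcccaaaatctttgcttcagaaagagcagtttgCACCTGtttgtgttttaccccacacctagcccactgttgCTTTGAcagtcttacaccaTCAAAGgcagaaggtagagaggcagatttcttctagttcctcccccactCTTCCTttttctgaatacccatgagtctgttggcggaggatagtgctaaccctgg
Cd3g: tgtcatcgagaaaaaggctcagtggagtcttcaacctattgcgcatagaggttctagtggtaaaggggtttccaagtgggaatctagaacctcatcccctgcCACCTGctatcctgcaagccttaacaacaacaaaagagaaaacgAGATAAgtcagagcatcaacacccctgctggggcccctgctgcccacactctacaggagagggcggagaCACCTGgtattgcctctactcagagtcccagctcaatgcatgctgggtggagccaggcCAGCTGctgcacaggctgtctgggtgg
Cd3e: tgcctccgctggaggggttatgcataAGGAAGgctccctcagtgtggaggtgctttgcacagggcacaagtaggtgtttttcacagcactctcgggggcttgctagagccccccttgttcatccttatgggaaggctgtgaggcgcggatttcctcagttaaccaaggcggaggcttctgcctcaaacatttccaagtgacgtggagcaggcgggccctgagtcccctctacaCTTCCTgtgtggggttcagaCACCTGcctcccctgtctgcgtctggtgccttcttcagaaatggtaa
Cd247: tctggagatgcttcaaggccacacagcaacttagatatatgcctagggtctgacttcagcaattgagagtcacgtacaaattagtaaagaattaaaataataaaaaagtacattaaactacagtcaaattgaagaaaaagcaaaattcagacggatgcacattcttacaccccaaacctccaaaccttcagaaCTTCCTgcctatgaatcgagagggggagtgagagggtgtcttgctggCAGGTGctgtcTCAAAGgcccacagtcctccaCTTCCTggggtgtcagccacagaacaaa

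All 4 chains had at least 1 E protein match, spelled CAGNTG, as did 6 of the 7 promoters, against 51.4% of the 32851 promoters in the table. ETS matches, spelled AGGAAG, stood 5 and 198 bases before the Cd3d start, 17 and 224 bases before the Cd3e start, and 57 bases before and 22 after the Cd247 start. Cd3g had no ETS match, and 4 of the 7 promoters had one, against 35.4% of all. TCF and LEF matches, spelled TCAAAG, stood 54 and 73 bases before the Cd3d start and 1 base after that of Cd247, and Bcl11b held one too, which makes 3 of 7, against 16.0% of all. The Cd3g promoter held the GATA match, spelled AGATAA, 104 bases before its start, as 1 of the 7, against 11.2% of all. None of the 7 held the RUNX letters, TGTGGT, which 16.8% of all promoters held. A match is a run of letters and not a site of binding, and CAGCTG reads the same on both strands and was taken as 1 site.

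Cd3g, Cd3d and Cd247 were far higher in HSC than in the other cells, and Cd3e was not. Cd3g, the gamma chain, read 12.55, 12.91 and 13.01 in HSC 1 to 3, against 4.18, 4.21 and 4.55 in VSEL 1 to 3 and 4.20, 3.81 and 3.82 in ESC 1 to 3. Every HSC array was above every other array, with a difference of 8.54 (log2) or 373-fold over VSEL and 8.88 or 471-fold over ESC. Cd3d, the delta chain, read 12.10, 11.94 and 13.09 in HSC, against 5.84, 5.98 and 5.98 in VSEL and 5.35, 5.13 and 5.16 in ESC. That is 88.7-fold over VSEL and 144-fold over ESC, and the groups did not overlap. All fold changes here compare group means of log2 RMA values, and folds against a level near background can understate the true ratio.

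Cd3e, the epsilon chain that every complete receptor needs, showed a much smaller difference on its single probe set. It read 7.93, 8.09 and 8.08 in HSC, against 7.12, 7.38 and 7.38 in VSEL and 6.77, 6.88 and 6.82 in ESC. The HSC arrays were the highest, but by only 0.78 (log2) over VSEL and 1.21 over ESC. As a rank among all probe sets of its own array, controls left out, Cd3e stood at the 80.4th to 82.0th percentile in HSC. It stood at the 80.2nd to 82.9th in VSEL and the 72.0th to 72.7th in ESC, so that HSC and VSEL overlapped in rank. When the arrays were quantile normalized once more, the HSC minus VSEL difference was 0.00.

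Cd247, the zeta chain, was measured by 4 probe sets that did not give the same picture. The one with the highest mean, 1426396_at, was read as the gene and gave 11.00, 10.84 and 11.26 in HSC, against 4.79, 4.51 and 4.44 in VSEL and 4.51, 4.53 and 5.62 in ESC, or 84.4-fold over VSEL and 70.9-fold over ESC. A second, 1452539_a_at, also separated the groups, with 6.84, 7.88 and 6.27 in HSC, against 4.02, 4.72 and 4.14 in VSEL and 3.75, 3.82 and 4.30 in ESC. Probe sets 1420716_at and 1426079_at lay between 4.33 and 4.92 in HSC, 4.62 and 5.27 in VSEL and 4.46 and 4.75 in ESC. HSC overlapped another cell type on both of these, which stayed near background on all 9 arrays. Averaging the 4 probe sets would give an HSC minus VSEL difference of 2.15 (log2) in place of 6.40.

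**Figure D1:**
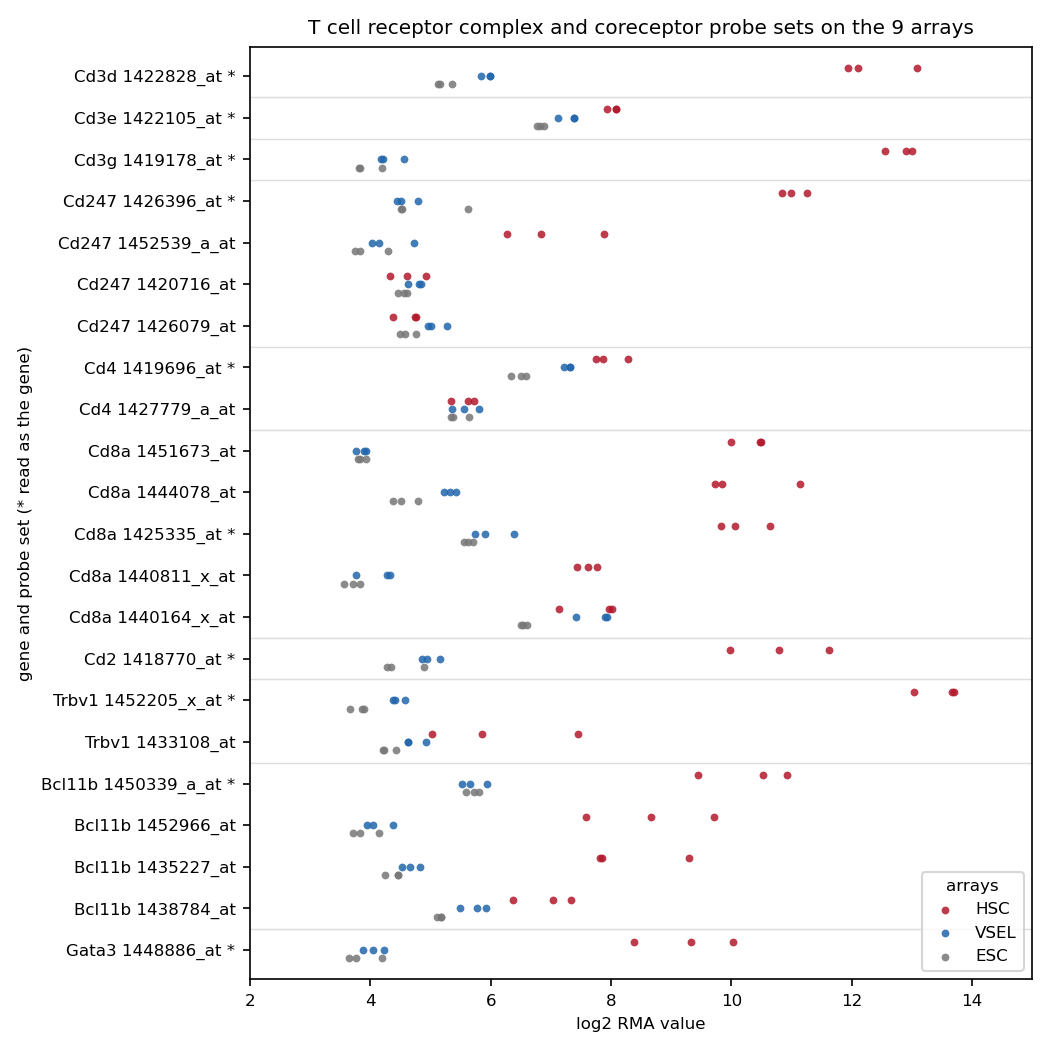
Log2 RMA values of the 22 probe sets of the 10 genes, with 1 point for each of the 9 arrays, coloured by cell type; an asterisk marks the probe set read as the gene. All HSC points lie to the right of all VSEL and ESC points on 18 probe sets, and Cd3e and Cd4 show the smallest gaps among the probe sets read as genes.

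Of the antigen-binding chains, the 10 genes held Trbv1, a variable segment of the beta chain. Its probe set 1452205_x_at read 13.04, 13.70 and 13.67 in HSC, against 4.37, 4.40 and 4.57 in VSEL and 3.66, 3.90 and 3.86 in ESC, or 528-fold over VSEL and 810-fold over ESC. An _x_at probe set can bind related sequences, so this signal may come from other beta chain transcripts as well as Trbv1. The other probe set, 1433108_at, read 5.02, 5.86 and 7.45 in HSC, against 4.63, 4.63 and 4.92 in VSEL and 4.22, 4.21 and 4.43 in ESC. The HSC arrays were again the highest on it, with a difference of 1.41 (log2) over VSEL, and they were far apart from each other.

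Other genes and segments of T cell receptor chains, which were not among the 10 genes, were higher in HSC on part of their probe sets. Of 15 probe sets of 9 genes, 7 were higher in HSC than VSEL, 0 were lower and 7 were higher in HSC than ESC (limma over all probe sets, Benjamini-Hochberg adjusted p under 0.05), where 6.19% of all probe sets were higher than in VSEL and 4.42% higher than in ESC. The 7 belonged to 3 genes. Trgv4, a gamma chain segment, was higher on all 3 of its probe sets. On 1450521_a_at it read 8.64, 9.32 and 9.20 in HSC, against 3.70, 4.08 and 3.84 in VSEL and 3.45, 3.56 and 3.46 in ESC (HSC minus VSEL 5.23, adjusted p = 8.64e-05, limma). Trgv1, also of the gamma chain, read 9.82, 9.98 and 10.82 in HSC, against 5.07, 5.15 and 5.15 in VSEL and 3.92, 3.83 and 3.77 in ESC (5.10, adjusted p = 0.000325). For both gamma segments all HSC arrays lay above all VSEL and ESC arrays.

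Trav9d-3, an alpha chain segment, was higher in HSC than VSEL on 3 of its 5 probe sets, by 3.77 to 5.43 (log2). On 1426168_a_at it read 8.17, 9.14 and 10.41 in HSC, against 3.76, 3.62 and 4.08 in VSEL and 3.51, 3.55 and 3.54 in ESC (adjusted p = 0.00331, limma), while the remaining pair of probe sets differed by 0.06 and 0.01 and was not called. No difference was called for 6 genes. Trav6-3 read 3.21, 4.98 and 6.35 in HSC, against 3.12 to 3.26 in VSEL and 3.19 to 3.26 in ESC (adjusted p = 0.209, HSC minus VSEL), so 1 HSC library was at the level of the other cells. Trbv13-2 read 6.89, 4.62 and 4.64 in HSC, against 4.68 to 4.70 in VSEL and 4.22 to 4.34 in ESC, and stood out in HSC 1 alone (adjusted p = 0.505). Tcra, Trav12n-1, Trav12n-2 and Trav13-5 differed from VSEL by -0.16, -0.13, -0.34 and -0.49. The annotation names these segments by single symbols although the chains are rearranged from many, so an array signal cannot be tied to 1 receptor.

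The coreceptors differed from each other. Cd8a, the alpha chain of CD8, which binds class I molecules, was read from 1425335_at, with 9.83, 10.65 and 10.06 in HSC, against 5.91, 6.39 and 5.74 in VSEL and 5.62, 5.56 and 5.70 in ESC. That is 18.3-fold over VSEL and 23.4-fold over ESC. A second probe set, 1451673_at, gave 87.1-fold over VSEL, with 9.99, 10.50 and 10.47 in HSC, against 3.93, 3.76 and 3.90 in VSEL and 3.92, 3.79 and 3.83 in ESC. Probe sets 1444078_at and 1440811_x_at also placed all HSC arrays above all others, by 4.92 and 3.44 (log2) over VSEL. The fifth, 1440164_x_at, did not, with 7.13, 8.01 and 7.96 in HSC, against 7.41, 7.90 and 7.93 in VSEL and 6.50, 6.61 and 6.53 in ESC. HSC and VSEL overlapped on it.

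The partner chain of Cd8a, Cd8b1, is named here after its values were seen. It read 11.33, 11.26 and 11.18 in HSC, against 4.17 and 4.23 in the VSEL libraries and 3.83, 3.62 and 3.82 in ESC (HSC minus VSEL 7.06, SE 0.14, adjusted p = 5.32e-06, limma). All 3 HSC libraries lay above all others for both CD8 chains.

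Cd4, the coreceptor for class II molecules, showed no such gap. Its probe set 1419696_at read 8.29, 7.75 and 7.87 in HSC, against 7.31, 7.22 and 7.31 in VSEL and 6.58, 6.50 and 6.34 in ESC, or 1.60-fold over VSEL and 2.81-fold over ESC. By rank within each array, HSC lay at the 79.4th to 82.7th percentile, VSEL at the 80.5th to 82.4th and ESC at the 67.9th to 70.2nd, so HSC and VSEL overlapped, and after a further quantile normalization the difference from VSEL was -0.10. The second Cd4 probe set, 1427779_a_at, read 5.63, 5.34 and 5.72 in HSC, against 5.35, 5.55 and 5.81 in VSEL and 5.38, 5.34 and 5.64 in ESC, and all 3 groups overlapped.

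Cd2, an adhesion molecule of T cells and NK cells that binds CD48 in the mouse, read 9.98, 10.80 and 11.62 in HSC, against 4.86, 4.94 and 5.16 in VSEL and 4.89, 4.27 and 4.34 in ESC. It was 57.5-fold higher in HSC than VSEL and 78.8-fold higher than ESC, without overlap, although the HSC arrays spanned 1.64 (log2).

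Both transcription factors were high in HSC alone. Gata3, which guides early T cells and CD4 T cells and also innate lymphoid cells, read 10.03, 9.33 and 8.38 in HSC, against 4.05, 4.22 and 3.87 in VSEL and 3.65, 3.76 and 4.19 in ESC, or 36.8-fold over VSEL and 41.6-fold over ESC. Bcl11b, which holds precursors to the T lineage, was read from 1450339_a_at, with 10.52, 10.93 and 9.45 in HSC, against 5.65, 5.52 and 5.94 in VSEL and 5.59, 5.72 and 5.81 in ESC. It was 24.4-fold higher in HSC than VSEL and 24.1-fold higher than ESC. The other 3 Bcl11b probe sets also kept every HSC array above all others, with HSC minus VSEL differences of 4.58 for 1452966_at, 3.61 for 1435227_at and 1.24 for 1438784_at.

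Counted over probe sets, 18 of the 22 had all HSC libraries above all VSEL and ESC libraries, a pattern held by 5.77% of all probe sets. With a gap of more than 1 log2 unit, 14 did, in 8 genes, against 2.62% of all. Since the genes were picked for this pattern, nothing is read from these shares. Over single arrays, the gap from the lowest HSC array to the highest other array was 1.55 for Cd247 1452539_a_at, just inside that mark. It was 0.55 for Cd3e, 0.46 for Bcl11b 1438784_at, 0.44 for Cd4 1419696_at and 0.11 for Trbv1 1433108_at, just outside it. The 4 probe sets without the pattern were Cd247 1420716_at and 1426079_at, Cd4 1427779_a_at and Cd8a 1440164_x_at. The median difference of the 10 genes was 5.52 (log2) in HSC minus VSEL and 5.76 in HSC minus ESC, where the median over all genes was -0.22 and -0.04. These 2 comparisons share the HSC libraries.

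The genes did not rank the 3 HSC libraries in the same order. Over the 14 probe sets with the wide gap, HSC 1 was the highest once and the lowest 6 times, HSC 2 the highest 9 times and the lowest 2 times, and HSC 3 the highest 4 times and the lowest 6 times. Relative to the mean of the HSC libraries, HSC 3 stood at 0.71 (log2) for Cd3d and 0.82 for Cd2, but at -0.87 for Gata3, -0.85, -1.07 and -0.51 on 3 Bcl11b probe sets, -0.73 for Cd247 1452539_a_at and -0.51 for Cd8a 1444078_at. Probe sets of the same gene thus placed HSC 3 differently, since it was the highest library on Cd247 1426396_at, at 0.22. The range over HSC libraries was 1.66 for Gata3, 1.47 for Bcl11b and 1.15 for Cd3d, against 0.66 for Trbv1, 0.46 for Cd3g and 0.42 for Cd247. With 20 cells in each pool, the part of cell sampling in this spread was not tested.

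**Figure D2:**
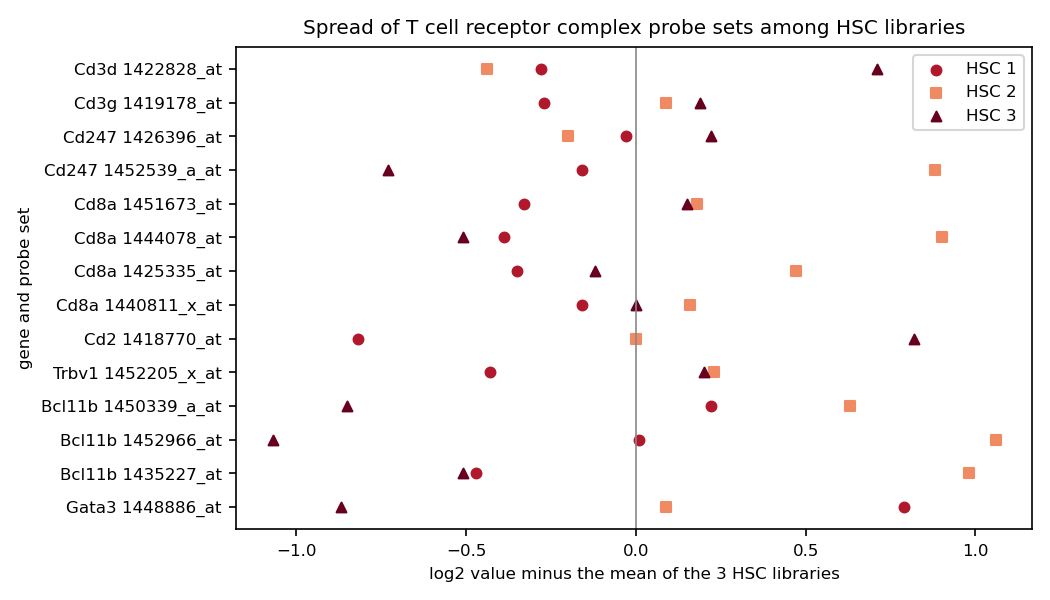
Log2 value of each HSC library minus the mean of the 3 HSC libraries, for the 14 probe sets whose HSC arrays all lay more than 1 log2 unit above every other array. Symbols stand for HSC 1, HSC 2 and HSC 3. HSC 3 lies at the right for Cd3d and Cd2 and at the left for Gata3, the 3 Bcl11b probe sets, Cd247 1452539_a_at and Cd8a 1444078_at.

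The choice of genes did not use VSEL against ESC, so this comparison was tested. Of the 10 genes, Cd4 alone was called, higher in VSEL, and 0 were lower (3 higher and 0 lower at an unadjusted p under 0.05), where 6.33% of all genes were higher in VSEL than ESC and 10.6% lower (limma, Benjamini-Hochberg over all genes, adjusted p under 0.05). Cd4 was 0.81 higher (log2, SE 0.20, adjusted p = 0.0386) and both VSEL libraries lay above all 3 ESC libraries. That call ended in 9 of the 18 other settings, with adjusted p from 0.0613 to 0.105. Of these, 6 left out 1 library: VSEL 1, VSEL 2+3, HSC 3, ESC 1, ESC 2 or ESC 3.

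The means of the 3 CD3 chains lay slightly above ESC in VSEL without passing the test. The difference was 0.70 (SE 0.35, adjusted p = 0.206) for Cd3d, 0.43 (SE 0.14, adjusted p = 0.092) for Cd3e and 0.34 (SE 0.21, adjusted p = 0.3) for Cd3g. Trbv1 differed by 0.62 (SE 0.23, adjusted p = 0.118) and Cd8a by 0.36 (SE 0.25, adjusted p = 0.35). For Cd2 it was 0.45 (SE 0.47, adjusted p = 0.53), for Cd247 -0.25, for Gata3 0.18 and for Bcl11b -0.02 (adjusted p = 0.664, 0.814 and 0.983). The VSEL and ESC values of 5 of the genes, Cd3d, Cd3e, Cd4, Cd8a and Trbv1, did not overlap, which was also so, with VSEL higher, for 32.9% of all genes. The median difference of the 10 genes was 0.39, against 0.11 for all genes. Another scaling moved Cd3e past the threshold, with a difference of 1.07 (adjusted p = 0.0076) after quantile normalization and 0.92 (adjusted p = 0.012) after cyclic loess. Cyclic loess also moved Trbv1 past it, at 1.06 (adjusted p = 0.0375), and gave 1.32 for Cd3d (adjusted p = 0.0634). Leaving out 1 library did the same for Cd3d, at 0.70 (adjusted p = 0.0419) without HSC 3, and for Trbv1, at 0.62 (adjusted p = 0.0439) without HSC 1. The lower quartile of all genes was itself higher on the VSEL arrays, and its part in these small differences was not tested.

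The wider T cell programme was followed in 82 other genes, of which 75 were measured, sorted into receptor signalling, surface molecules and transcription factors. In HSC against VSEL, 39 of the 75 were higher and 1 was lower, where 9.39% of all genes were higher and 8.04% lower. In HSC against ESC, 56 were higher and 0 lower, where 7.06% of all genes were higher and 9.98% lower. At an unadjusted p under 0.05, 51 were higher and 3 lower against VSEL, and 64 higher and 0 lower against ESC. The lists were written with earlier results of these arrays known, so their direction is not independent evidence. At another scaling, quantile normalization, 38.9% of all calls in HSC minus VSEL were higher in HSC in place of 53.9%, and the T cell count was 37.

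Receptor signalling genes were higher in HSC than VSEL for 12 of 25 measured and than ESC for 19, with none lower, and their median difference was 2.51 (log2) over VSEL. Skap1, an adaptor between the receptor and integrins, read 11.93, 12.20 and 11.53 in HSC, against 4.81 and 5.54 in VSEL and 4.94, 6.41 and 4.75 in ESC (HSC minus VSEL 6.71, SE 0.54, adjusted p = 0.000774, limma). Its partner adaptor Fyb was higher by 5.57 (adjusted p = 0.000773). Txk, a Tec family kinase of T cells, was higher by 5.05 (adjusted p = 0.000316), Sh2d2a, an adaptor that binds Lck, by 4.56 (adjusted p = 0.000174) and Sit1, a transmembrane adaptor, by 4.08 (adjusted p = 0.00217). For these 5 genes every HSC library lay above every VSEL and ESC library. Lat, the membrane scaffold that the receptor's kinases phosphorylate, was higher in HSC by 2.51 (adjusted p = 0.0202), a call that ended with array weights and without VSEL 1, HSC 1 or HSC 2, up to adjusted p = 0.0968.

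In VSEL against ESC, 4 of 25 signalling genes were higher and 1 was lower, where 6.33% of all genes were higher and 10.6% lower. Lat read 10.16 and 10.67 in VSEL, against 8.31, 6.67 and 7.19 in ESC (3.03, SE 0.49, adjusted p = 0.0111, limma), a call that ended with array weights at 0.0538. Ptpn6, a phosphatase that restrains receptor signals in many blood cells, was higher in VSEL by 3.94 (SE 0.54, adjusted p = 0.00669). The remaining 3 of the 5 are named after their values were seen. Csk, a kinase that restrains Src kinases, was higher by 1.92 (adjusted p = 0.0119) and Zap70, the kinase that docks on phosphorylated CD3 and zeta chains, by 0.79 (adjusted p = 0.0403). Plcg1, a phospholipase used widely outside blood, was lower by 2.07 in VSEL (log2 difference -2.07, adjusted p = 0.00771).

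Surface genes had the largest median differences of the 3 lists: 16 of 28 measured were higher in HSC than VSEL, 21 were higher than ESC and none was lower, with median differences of 3.46 and 5.63 (log2). Cd27, a costimulatory receptor, read 11.31, 11.74 and 11.21 in HSC, against 3.29 and 3.21 in VSEL and 3.12, 2.93 and 3.12 in ESC (HSC minus VSEL 8.17, SE 0.19, adjusted p = 7.42e-06, limma). Ccr7, the receptor that guides naive T cells to lymph nodes, was higher by 7.70 (adjusted p = 8.48e-06), and Il2rb, a receptor chain for interleukins 2 and 15, by 7.49 (adjusted p = 8.17e-06). Cd5, an inhibitory receptor of T cells and some B cells, was higher by 7.33 (adjusted p = 2.65e-05). Thy1, a surface marker of mouse T cells, was higher by 7.32 (SE 0.60, adjusted p = 0.000802). In VSEL against ESC, 2 surface genes were higher and none lower, a share of 7.1% near the 6.33% of all genes. They were Ptprcap, a CD45-associated protein, by 5.80 (SE 0.40, adjusted p = 0.000997) and Ly9, a receptor of the SLAM family, by 2.24 (SE 0.51, adjusted p = 0.0321), of which the Ly9 call ended in 6 of 18 settings, among them without HSC 2, HSC 3 or any 1 ESC library, up to adjusted p = 0.088.

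The VSEL libraries disagreed with each other for some of these genes. Il7r, the interleukin 7 receptor of lymphoid cells, was named after its values were seen and read 11.46, 11.68 and 11.05 in HSC, against 4.70 in VSEL 1 and 12.69 in VSEL 2+3 (adjusted p = 0.38, limma). Fyn, a Src family kinase, named in the same way, read 6.47 in VSEL 1 and 12.44 in VSEL 2+3. Across 14 pan-leukocyte genes, the median log2 level was 13.08 to 13.43 in HSC, 5.24 in VSEL 1 and 10.75 in VSEL 2+3, and 4.74 to 5.49 in ESC. The 10 receptor complex genes showed no such split, with medians of 10.27 to 10.82 in HSC, 5.26 and 5.39 in VSEL and 4.83 to 5.39 in ESC. Since these 10 genes were picked for being high in HSC, nothing is read from this contrast.

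Among transcription factors of T cells, 11 of 22 measured were higher in HSC than VSEL and 1 was lower, while 16 were higher than ESC and none lower. Tbx21, which encodes T-bet of cytotoxic and type 1 helper cells, read 10.44, 10.88 and 10.60 in HSC, against 3.35 and 3.66 in VSEL and 3.56, 3.56 and 3.90 in ESC (HSC minus VSEL 7.14, SE 0.21, adjusted p = 1.36e-05, limma). Runx3, a factor of CD8 T cells and NK cells, was higher by 5.17 (SE 0.30, adjusted p = 0.000224), and Eomes, related to T-bet, by 4.33 (SE 0.78, adjusted p = 0.0162). The Eomes call ended with array weights and without VSEL 1 or HSC 1, up to adjusted p = 0.0669. Tcf12, an E protein, and Id2, which binds E proteins, were higher by 4.41 (adjusted p = 0.0494) and 4.38 (adjusted p = 0.0453), and these calls ended in 12 of 18 and 11 of 17 settings. They ended without any 1 HSC or ESC library, for Tcf12 also without VSEL 1 and for Id2 also without VSEL 2+3, up to adjusted p = 0.112 and 0.124. The VSEL libraries disagreed for both genes. Id2 read 7.86 in VSEL 1 and 3.78 in VSEL 2+3, while Tcf12 read 3.55 in VSEL 1 and 7.60 in VSEL 2+3.

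The 1 factor lower in HSC than VSEL, Nfatc2, which carries calcium signals to the nucleus, was named after its values were seen. It read 7.29, 7.30 and 7.52 in HSC, against 8.06 and 7.91 in VSEL (-0.62, SE 0.17, adjusted p = 0.0493, limma), and the count of lower genes was 0 whichever library was left out. In VSEL against ESC, 2 factors were higher and none lower, or 9.1% beside the 6.33% of all genes. They were Ikzf1, or Ikaros, of all lymphoid and many blood cells, by 6.28 (SE 0.32, adjusted p = 0.000471) and Id3, another inhibitor of E proteins, by 1.88 (SE 0.33, adjusted p = 0.015).

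**Figure D3:**
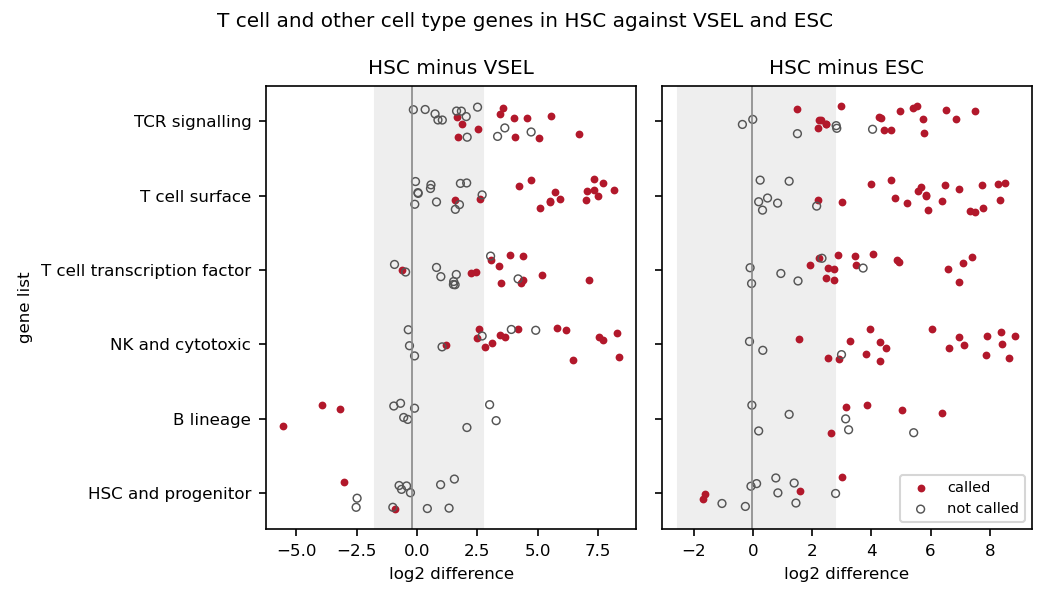
Log2 difference of each measured gene in 3 T cell lists and 3 other lists, as HSC minus VSEL (left) and HSC minus ESC (right); filled points passed the limma test at an adjusted p of 0.05, the line is the median of all genes and the shaded band holds the middle of all genes, from the 5th to the 95th percentile. Most points of the T cell and NK lists lie to the right of the median line, with 16 of 28 surface genes and 15 of 22 NK and cytotoxic genes called in HSC minus VSEL.

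The mean pattern of Cd3d, Cd3e, Cd3g and Cd247 joins large gaps with the small gap of Cd3e and so matches no single chain. The 8 genes outside the set nearest to this mean were Man1a, Klrc1, Ctso, Gfi1, Btla, Ctla4, Slc9a9 and Trgv4. Likeness was the root mean square difference of log2 values centred on each gene's mean, over 8 libraries, and ran from 0.174 for Man1a to 0.248 for Trgv4. Man1a read 8.69, 8.38 and 8.91 in HSC, against 3.51 and 3.33 in VSEL and 3.06, 2.86 and 3.21 in ESC. Klrc1 is a receptor of NK cells and some CD8 T cells, Btla and Ctla4 are inhibitory receptors of lymphocytes, and Gfi1 is a repressor used by stem cells and lymphoid and myeloid cells. Of the 10 genes, Cd2 was the nearest at 0.401 and rank 32 of all genes. Among the chains themselves Cd247 ranked 39, Cd3d 81 and Cd3g 403, and Cd4 and Cd3e, with their small gaps, were the farthest of the 10 at 2.23 and 2.28.

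Markers of some other cells moved with the T cell genes, and those of others did not. NK and cytotoxic genes were higher in HSC than VSEL for 15 of 22 measured and lower for 0 (17 and 0 at an unadjusted p under 0.05), and higher than ESC for 19. Over all genes, 9.39% were higher and 8.04% lower in HSC than VSEL, and 7.06% were higher in HSC than ESC. The summed level of the 22, as log2 of the summed linear values, was 15.73 to 16.31 in HSC, 11.60 and 14.60 in VSEL and 9.51 to 9.77 in ESC. Klrd1, a receptor chain of NK cells and some T cells, was 208-fold higher in HSC than VSEL (7.70, adjusted p = 7.42e-06, limma), and Klrk1, or NKG2D, was higher by 5.82 (adjusted p = 0.00129). Ncr1, the receptor that best marks NK cells, read 8.16, 10.11 and 8.91 in HSC, against 6.32 and 9.73 in VSEL (adjusted p = 0.495). NK cells and cytotoxic T cells share many of these genes, and the part of NK cells in the result was not tested.

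Of 9 thymocyte genes, 1 was higher and 2 lower in HSC than VSEL, where 9.39% of all genes were higher and 8.04% lower. The higher one, Dtx1, a regulator of Notch signalling named after its values were seen, read 11.07, 10.95 and 10.52 in HSC, against 7.86 and 7.68 in VSEL (3.08, adjusted p = 0.000409, limma). The summed level of the 9, in which Cd24a weighs most in HSC and VSEL, was 12.56 to 13.25 in HSC, 13.05 and 14.96 in VSEL and 10.42 to 10.90 in ESC. Ptcra, the surrogate alpha chain of immature thymocytes, read 4.85 to 5.50 in HSC, against 5.68 and 6.31 in VSEL. Rag1, which cuts the receptor genes for rearrangement, lay below the lower quartile of all genes in HSC, at 2.96 to 2.99, against 11.00 and 9.09 in VSEL (HSC minus VSEL -7.07, adjusted p = 0.000491, limma). Rag2, its partner, differed by -0.71 (adjusted p = 0.0593).

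Type 2 innate lymphoid genes, which share Gata3 with T cells, were higher in HSC than VSEL for 1 of 7 measured and lower for 1. Over all genes, 9.39% were higher and 8.04% lower. The summed level of the 7 was 8.83 to 9.88 in HSC, 8.14 and 8.39 in VSEL and 7.73 to 7.74 in ESC. The higher one was Il17rb, the interleukin 25 receptor, by 2.64 (adjusted p = 0.0221, limma), and the lower one was Rora, a nuclear receptor, by -0.72 (adjusted p = 0.0442). The Il17rb call ended in 5 of 18 settings, among them without HSC 3, VSEL 1 or VSEL 2+3, and that of Rora in 13, among them without any 1 library except VSEL 2+3, up to adjusted p = 0.0827 and 0.118. Plasmacytoid dendritic genes were higher in HSC than VSEL for 5 of 9 and lower for 0. Their median level was 8.40 to 9.52 in HSC, 6.35 and 6.98 in VSEL and 4.96 to 5.85 in ESC. Their summed level was 11.85 to 13.32 in HSC, 13.32 and 13.82 in VSEL and 8.88 to 9.20 in ESC. Spib, named after its values were seen, weighed most in the VSEL sums. It read 13.55 and 11.98 in VSEL, against 12.03, 9.51 and 8.60 in HSC (adjusted p = 0.114, limma). Siglech, which marks these cells in the mouse, read 8.33, 8.45 and 6.61 in HSC, against 6.35 and 10.84 in VSEL (adjusted p = 0.675). Ccr9, another marker of the list, was higher in HSC than VSEL by 3.14 (SE 0.22, adjusted p = 0.000446, limma), and no setting ended that call. Bst2 was higher by 2.45 (SE 0.62, adjusted p = 0.0423), a call that ended in 10 of 18 settings, up to adjusted p = 0.133.

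B lineage genes were higher in HSC than VSEL for 0 of 11 and lower for 3, where 9.39% of all genes were higher and 8.04% lower. The summed level of the 11 was 11.95 to 14.23 in HSC, 14.18 and 15.47 in VSEL and 8.73 to 9.48 in ESC. Cd79a, a signalling chain of the B cell receptor, read 11.38, 8.28 and 8.65 in HSC, against 10.32 and 9.92 in VSEL (adjusted p = 0.618, limma), and the HSC and VSEL libraries overlapped. Of 13 granulocyte and monocyte genes, 2 were higher and 0 lower, with median levels of 12.40 to 12.96 in HSC, 11.55 and 14.17 in VSEL and 4.59 to 4.91 in ESC. Of 13 HSC and progenitor genes, 0 were higher and 2 lower, and of 9 erythroid genes, 0 were higher and 5 lower. All 10 pluripotency genes were lower in HSC than in VSEL and than in ESC. The part of any of these cell types in the HSC pools was not tested.

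**Figure D4:**
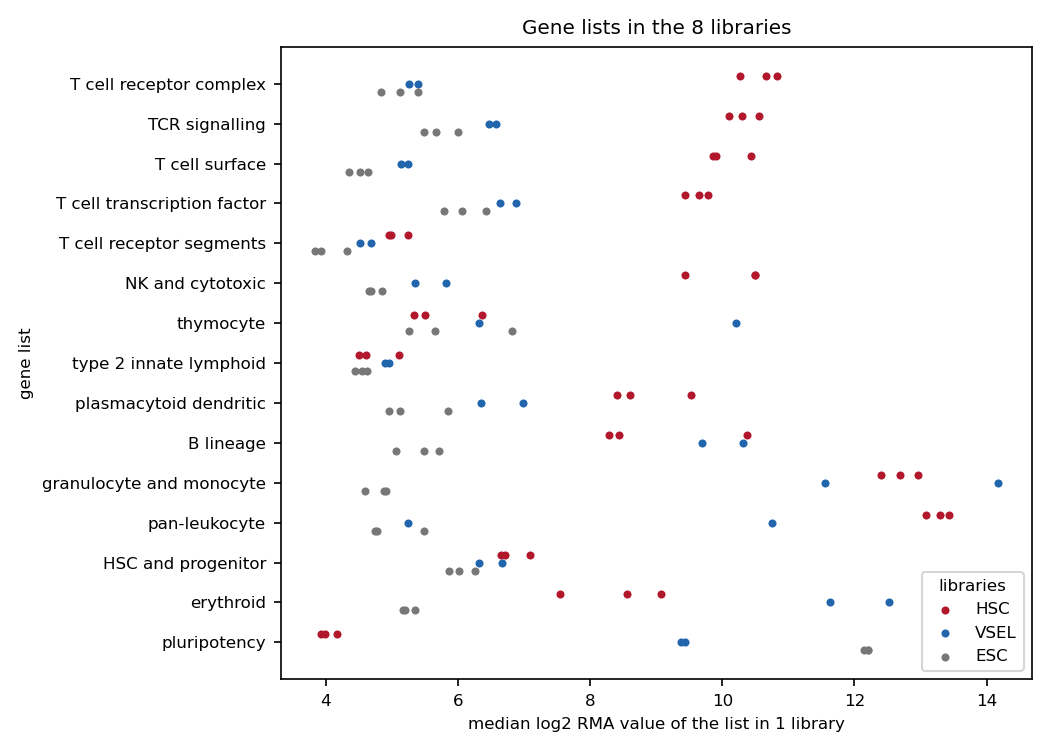
Median log2 RMA value of each gene list, with 1 point for each of the 8 libraries, coloured by cell type. The T cell receptor complex and the 3 T cell lists lie at 9.44 to 10.82 in HSC and below 7 in VSEL and ESC, while the B lineage medians of HSC and VSEL overlap.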

How the data were processed

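The deposited values are log2 expression per probe set, and the submitters' processing notes name RMA and Partek 6.5 as the authors' tools. RMA as a rule subtracts background, puts arrays on one quantile distribution and joins the probes of a set into 1 value. The sources used here do not give its settings. The deposited arrays did not share 1 distribution, since the upper quartile of all genes was lower in VSEL than in HSC and ESC. Values were taken as deposited and without detection calls. Precision is limited by the number of arrays.

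There were 45101 probe sets, 64 of them controls. The platform annotation gave 1 gene to 34945 others, several to 932 and listed 9160 not at all. For 34741 of the probe sets with 1 gene, the symbol was taken from RefSeq GRCm38.p6, whether or not it differed. For each gene the probe set with the highest mean over libraries was used. Tests were two-sided, by lmFit and eBayes of limma 3.58.1 (R 4.3.3), in 1 fit over 8 libraries with 5 residual degrees of freedom, with Benjamini-Hochberg adjustment over 18193 genes and calls at an adjusted p under 0.05. The script was tested on simulated data. SE is limma's moderated standard error.

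The members and the gene lists were chosen with earlier results of these data known. Named genes are the 10 members, all receptor segments and the 8 genes nearest the CD3 chains. From each T cell list come the 5 largest differences called in HSC minus VSEL and the 2 largest called in VSEL minus ESC. Among the first measured markers of the other lists, only part is named. Some further genes were named after their values were seen. Counts of members in HSC comparisons are descriptions. The alternatives were 10 other settings and 8 that left out 1 library.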

Additional observations from a re-analysis of the deposited data

How the results depend on the processing

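Of the 75 T cell pathway genes, the number higher in HSC than VSEL was 39 and lay between 34 and 43 when 1 library was left out, and the number higher in HSC than ESC was 56, with a range of 44 to 60. The number lower in HSC than VSEL was 1, but 0 with any library left out, with the mean of a gene's probe sets, with genes above the median alone, with HSC and VSEL fitted alone and with array weights. It was 2 with 9 separate arrays, with every probe set tested and after quantile normalization, and 3 after cyclic loess. In VSEL minus ESC the 8 higher genes became 13 after quantile normalization and 15 after cyclic loess, and 6 to 16 when 1 library was left out, with 16 without VSEL 2+3. The 1 lower gene became 0 with the mean of probe sets and 2 without _x_at and _s_at probe sets, and 1 to 2 when 1 library was left out.

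Pairing by replicate number across cell types was checked on the deviations of each array from the mean of its own cell type. These correlated at -0.0923 to 0.16 in the 9 same-number pairs, and only 1 was over 0.1. Pairs of other numbers ran from -0.16 to 0.135, so the same numbers did not stand out. With 3 arrays in each group, this check cannot exclude a pairing. With the number as a block on 9 arrays, 47 T cell genes were higher in HSC than VSEL and 0 lower, 55 were higher in HSC than ESC and 9 were higher in VSEL than ESC. Cd8a, read from another probe set, was 1.20 in VSEL minus ESC with 9 separate arrays (adjusted p = 0.0162), with and without the block.

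Some members changed direction. Cd8a was -0.05 in HSC minus VSEL with 9 separate arrays, with and without the block, because 1440164_x_at then had the highest mean of its probe sets, and Cd4 was -0.10 after quantile normalization. In VSEL minus ESC, Cd247 was 0.17 with the mean of probe sets, 0 after cyclic loess and 0.11 without ESC 3 (range -0.44 to 0.11 when 1 library was left out), and Bcl11b was 0.25 with the mean, 0.43 after cyclic loess, 0.02 without VSEL 1 and 0.04 without ESC 3 (range -0.07 to 0.04). Gata3 was -0.04 after quantile normalization and -0.06 after cyclic loess. Trbv1 without _x_at probe sets was 1.41 in HSC minus VSEL. The cause of the other changes was not tested. Over all genes, 3170 calls in HSC minus VSEL became 4757 with 9 arrays and 1292 to 2075 with array weights, HSC and VSEL fitted alone or genes above the median, and 1969 to 3180 without 1 library, while 3088 in VSEL minus ESC became 4719 with 9 arrays, 1460 with array weights and 1726 to 3069 without 1 library. The share of calls higher in VSEL was 37.3%, and 56.4% after quantile normalization, 52.2% after cyclic loess, 24.7% with VSEL and ESC fitted alone, 21.4% with genes above the median and 26.0% to 42.9% without 1 library. The share higher in HSC than VSEL was 53.9%, and 38.9% after quantile normalization, 68.5% with HSC and VSEL fitted alone, 69.5% with array weights, 71.2% with genes above the median and 56.3% to 66.8% without 1 library.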
